A study of Mus musculus with 162 samples.

Results

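Agrp, Npy, Pomc, Cartpt, Hcrt, Pmch, Trh, Crh, Oxt and Avp encode precursors of neuropeptides that act on feeding, energy use, stress and water balance. Their transcript levels were followed in 4 brain regions of mice during a fast of up to 22 h. These 10 genes were chosen by symbol among the 53686 genes counted. All mice were young adult male C57BL/6J, with 3 fed mice (0 h) and 3 mice at each of 2, 8, 12, 18 and 22 h without food. The 18 mice were killed at the same clock time, and each gave 9 organs, so that replicates were separate mice and the regions of a mouse were paired. The regions were the olfactory bulb (OB), the telencephalon with the diencephalon (BRN), the cerebellum (CBL), and the mesencephalon, pons and myelencephalon (BST).

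In the arcuate nucleus of the hypothalamus, neurons that make Agrp and Npy drive feeding, and neurons that make Pomc and Cartpt restrain it. Lateral hypothalamic neurons make either Hcrt (orexin) or Pmch (melanin-concentrating hormone), and neurons of the paraventricular and supraoptic nuclei make Trh, Crh, Oxt and Avp. The hypothalamus lies in the diencephalon, and thus in BRN, while several of the genes, such as Npy, are also made by neurons elsewhere in the brain.

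Levels are given as CPM, the count of a gene scaled by the total counts of its library. The total counts of a library ranged from 8224940 to 17704828 in OB, 6487419 to 22071004 in CBL and 6998492 to 11776354 in BST (n = 18 each), and from 3045845 to 12108290 in the 16 BRN libraries used. BRN 8 h rep3 and BRN 18 h rep1, with 130701 and 279848 counts, were left out. A level under that of 3 counts, which is 0.365 CPM in the shallowest OB library, 0.985 in BRN, 0.462 in CBL and 0.429 in BST, was taken as not measurable, and this floor covers counting error only.

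Marker lists went with the labels of the regions. The summed CPM of 8 telencephalic genes had a median of 1840.0 in BRN against 301, 247 and 71.98 in OB, CBL and BST. The 8 cerebellar genes summed to a median of 7474 in CBL against 957, 151.4 and 359 in OB, BRN and BST, and the 8 brainstem genes to 689 in BST against 41.6 or less elsewhere. The 8 bulb genes, of which Trh is one, summed to 2345 in OB against 537 or less elsewhere. A list of 14 hypothalamic transcription factors did not mark BRN, since its median sum was 24.8 in BRN, 31.5 in CBL and 27.3 in BST. Its members Sim1 and Nkx2-1 averaged 0.782 and 1.82 CPM in BRN and 0.0103 CPM or less elsewhere. BRN 2 h rep3 and 18 h rep2, which earlier results of these data placed near cerebellum, are left out in 1 alternative. The cerebellar genes summed to 181.99 and 141.5 CPM in them, within the 110.7 to 209.1 CPM of the 16 BRN libraries.

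Pmch had far higher levels in BRN than in the other regions. In the 16 BRN libraries it had a lowest level of 29.7, a median of 74.8 and a highest level of 206 CPM. In each BST library it had 3 to 20 counts (0.832 ± 0.356 CPM, SD, n = 18), in each OB library 0 to 4 and in each CBL library 0 to 5. Every BRN library lay above every library of the other regions, and BST, with a count in 18 of 18 libraries, came next. On the log2 scale Pmch was at −6.78 (SE 0.17) in BST minus BRN, lower in BST in 16 of 16 mice (adjusted p = 6.27e-41). OB minus BST was −2.71 (SE 0.34, adjusted p = 1.67e-10), lower in OB in 18 of 18 mice. With 0 to 4 counts in an OB library, the size of this difference depends on the small count added in the fit and is no bound. The exons of Pmch overlap those of Parpbp on the other strand, and whether counting used strand was not stated, so these counts are uncertain.

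Hcrt, Oxt and Avp were measurable in BRN and at or near the floor elsewhere. Hcrt, which promotes waking and feeding, had a lowest level of 0.985, a median of 13.3 and a highest level of 27.3 CPM in BRN, and at most 3 counts in any library of OB, CBL or BST. Its lowest BRN libraries were 18 h rep2 (0.985 CPM, 3 counts) and 2 h rep1 (1.40 CPM). Oxt, the precursor of oxytocin, had 4.62, 23.9 and 44.3 CPM as lowest, median and highest BRN levels, and at most 3 counts in a library elsewhere. Avp, the precursor of vasopressin, had 7.85, 25.1 and 55.2 CPM in BRN, at most 4 counts in an OB library and at most 1 in a CBL or BST library. For Oxt and Avp no BRN library overlapped the other regions. All 3 genes passed the filter on low counts through BRN alone, so their levels are given with no test against BRN.

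Npy, which drives feeding from the arcuate nucleus and also marks cortical interneurons, was high in both forebrain regions. Its lowest, median and highest levels were 82.1, 99.6 and 158.8 CPM in OB and 46.6, 74.5 and 128 CPM in BRN. In CBL these were 10.8, 13.9 and 18.5 CPM, and in BST 5.39, 8.04 and 10.7 CPM. The ranges of OB and BRN overlapped, both lay above CBL, and the highest BST library lay just below the lowest CBL library. BST minus BRN was −3.35 (SE 0.10, adjusted p = 7.21e-37), lower in BST in 16 of 16 mice, and BST minus CBL was −0.73 (SE 0.10, adjusted p = 6.35e-09), lower in 18 of 18. OB minus BRN was 0.25 (SE 0.09, adjusted p = 0.0105), higher in OB in 14 of 16 mice. Without the mice of replicate 1 or of replicate 3 it was 0.14 (adjusted p = 0.195) or 0.22 (adjusted p = 0.106), and no longer called. Over the alternatives the adjusted p ranged from 8.75e-04 to 0.195.

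Trh and Crh, which start the thyroid and the stress axes from the paraventricular nucleus, were higher in OB than in BRN, and both were lower in CBL than in BRN in 16 of 16 mice. Trh had 104.2, 131.8 and 160.8 CPM as lowest, median and highest levels in OB, 13.8, 25.9 and 31.3 CPM in BST, and 8.67, 17.8 and 38.1 CPM in BRN, with 0 to 6 counts in a CBL library. Every OB library lay above every library of the other regions, while BST and BRN overlapped. For Trh, OB minus BRN was 2.69 (SE 0.14, adjusted p = 1.60e-24), higher in OB in 16 of 16 mice. BST minus BRN was 0.33 (SE 0.14, adjusted p = 0.0303), higher in BST in 14 of 16 mice. That last call was lost without the mice of replicate 1 (0.35, adjusted p = 0.0650) or 3 (0.16, adjusted p = 0.384), and without BRN 2 h rep3 and 18 h rep2 (0.27, adjusted p = 0.0846), and over the alternatives the adjusted p ranged from 0.00838 to 0.384.

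Crh had 8.85, 14.9 and 18.1 CPM as lowest, median and highest levels in BST, 7.06, 9.40 and 14.2 CPM in OB, 2.38, 4.40 and 13.8 CPM in BRN, and 0 to 8 counts in a CBL library. The 3 regions overlapped in order BST, OB, BRN, and the highest BRN value came from 18 h rep2, the shallowest library used. For Crh, BST minus BRN was 1.57 (SE 0.15, adjusted p = 7.63e-15), higher in BST in 16 of 16 mice. OB minus BRN was 0.90 (SE 0.15, adjusted p = 1.89e-07), higher in OB in 15 of 16 mice, and OB minus BST was −0.67 (SE 0.12, adjusted p = 2.81e-06), lower in OB in 17 of 18.

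Cartpt and Pomc were highest in BRN and alike in OB and BST. Cartpt had 18.9, 30.0 and 64.4 CPM as lowest, median and highest levels in BRN, 5.06, 8.72 and 34.8 CPM in BST, 7.76, 9.41 and 13.8 CPM in OB, and 0 to 12 counts in a CBL library. BRN lay above OB throughout and above BST except for 1 library, BST 0 h rep2. For Cartpt, OB minus BRN was −1.89 (SE 0.17, adjusted p = 3.37e-15), lower in OB in 16 of 16 mice, and BST minus BRN was −1.84 (SE 0.17, adjusted p = 1.22e-14), lower in BST in 15 of 16. OB minus BST was −0.05 (SE 0.16, adjusted p = 0.809), with OB higher in 11 of 18 mice.

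Pomc, the precursor of melanocortins and of ACTH, had 3.55, 5.83 and 9.83 CPM as lowest, median and highest levels in BRN. It had 1.06, 1.72 and 6.78 CPM in OB, 1.03, 1.62 and 7.79 CPM in BST and 0.558, 1.14 and 2.19 CPM in CBL. The BRN range held the highest OB and BST libraries and lay above the rest of them except OB 18 h rep1 (4.44 CPM). For Pomc, OB minus BRN was −1.65 (SE 0.20, adjusted p = 9.53e-11), lower in OB in 15 of 16 mice. BST minus BRN was −1.72 (SE 0.20, adjusted p = 3.63e-11), also lower in BST in 15 of 16, and OB minus BST was 0.07 (SE 0.20, adjusted p = 0.760), higher in OB in 10 of 18.

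The libraries that stood apart for Pomc held pituitary transcripts. In BST 0 h rep2, with Cartpt at 34.8, Pomc at 7.79 and the lowest BST level of Crh (8.85 CPM), 8 of 12 pituitary genes had a count and summed to 51.6 CPM, led by Gh at 39.8 CPM. Pou1f1, Tbx19 and Ghrhr were among those at 0 there, and the 14 hypothalamic factors summed to 47.02 CPM, the highest in BST. In OB 0 h rep3 (Pomc 6.78 CPM) 8 of the 12 summed to 11.7 CPM, and in OB 18 h rep1 (Pomc 4.44 CPM) 5 summed to 14.7 CPM, with Gh at 8.95 and 12.4 CPM. In BST 2 h rep2 (Pomc 2.74 CPM) 6 of the 12 had a count and summed to 19.8 CPM, with Gh at 15.5 CPM. In the other OB and BST libraries the list summed to 2.93 CPM or less. The part of these transcripts in the Pomc level between regions was not tested.

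Agrp, which blocks melanocortin receptors, was near the floor in every region. It had 0 to 30 counts and a median of 0.366 CPM in BRN libraries, with the highest levels in 22 h rep2 (3.24 CPM), 12 h rep2 (3.17 CPM) and 18 h rep3 (2.21 CPM). It had at most 4 counts in an OB or CBL library and at most 7 in a BST library. It was lower in BST than in BRN in 9 of 16 mice, and since it passed the filter on low counts through 3 BRN libraries alone, no test against BRN is given. The exons of Agrp overlap those of Gm5914 on the same strand and Ctcf on the other, so its counts are uncertain.

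**Figure D1:**
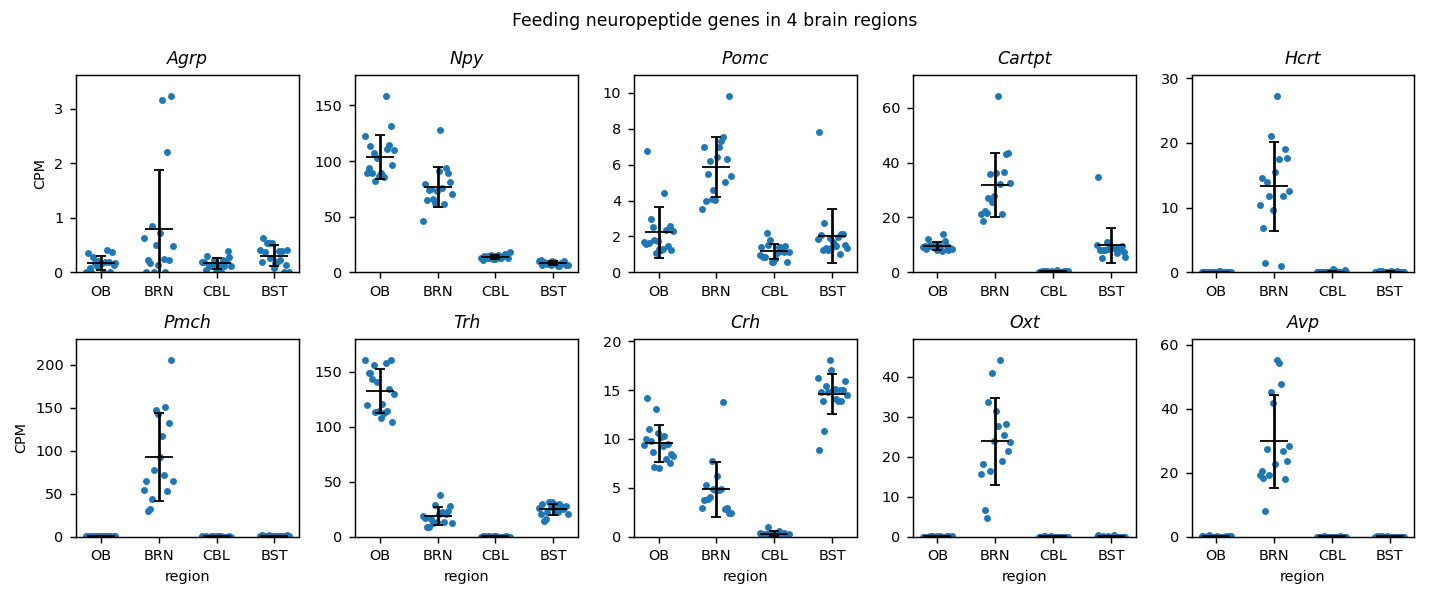
Level of each of the 10 genes in CPM (vertical axes, each panel with its own scale) in each library of OB, BRN, CBL and BST (horizontal axes). Points are libraries and the bars with whiskers are mean ± SD. Npy and Trh were highest in OB, Crh in BST, and Pmch, Hcrt, Oxt and Avp were near 0 outside BRN.

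Each pair of regions was tested over 18496 genes with the mouse as a block, by edgeR's quasi-likelihood test with Benjamini-Hochberg adjustment. Npy, Pomc, Cartpt, Pmch, Trh and Crh passed the filter on low counts also without the BRN libraries. Agrp, Hcrt, Oxt and Avp passed it through BRN alone, which fixes their difference from BRN, and they are not counted against it. OB minus BRN called 6 of the 6 others, where 74.5 percent of all genes were called. CBL minus BRN also called 6 of 6, where 78.9 percent were called, and BST minus BRN 6 of 6, where 75.0 percent were called. Agrp, Hcrt, Oxt and Avp had at most 7 counts in a library outside BRN, so they are not counted in the other pairs either. Npy, Trh, Crh and Pmch were called in OB minus BST, 4 of the 6 others, where 75.0 percent of genes were called. OB minus CBL called 5 of these 6 (background 69.6 percent) and BST minus CBL 6 of 6 (background 70.3 percent). A call between regions was thus common, and the size and order of the levels carry the description.

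Between genes, levels were compared per kilobase of exon. In BRN the mean order was Npy (135.98 CPM per kb), Pmch (123.4), Avp (51.5), Oxt (44.3), Cartpt (24.98), Hcrt (17.7), Trh (13.6), Pomc (4.44), Crh (3.66) and Agrp (0.790). In OB Npy led with 184 CPM per kb, followed by Trh (95.9), Cartpt (7.51) and Crh (7.25), the last pair being closer than their spread. In BST Trh (18.1 CPM per kb) and Npy (14.3) led Crh (11.1) and Cartpt (7.73), and in CBL Npy (24.8 CPM per kb) was the one member above 1. In BRN the neighbours Npy and Pmch, Avp and Oxt, Oxt and Cartpt, Cartpt and Hcrt, Hcrt and Trh, and Pomc and Crh also lay closer than the larger SD of the 2, as did Crh and Cartpt in BST, so that the order within these is not settled.

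The receptors of these peptides had their own order of regions. Hcrtr2, a receptor for orexins, had 9.16, 12.0 and 16.3 CPM as lowest, median and highest levels in BST against 0, 1.45 and 4.59 CPM in BRN. All BST libraries lay above all BRN libraries, and BST minus BRN was 2.70 (SE 0.21, adjusted p = 1.84e-17). Hcrtr1 averaged 10.1 CPM in BST and 6.10 in BRN (0.65, SE 0.16, adjusted p = 3.39e-04), so both orexin receptors were higher in BST, where Hcrt itself had at most 2 counts in a library. Mchr1, the receptor for melanin-concentrating hormone, averaged 22.8 CPM in BRN, 9.24 in OB, 8.39 in BST and 0.979 in CBL. Its OB minus BRN difference was −1.47 (SE 0.11, adjusted p = 9.42e-18), far smaller than that of its ligand gene Pmch (−9.49, SE 0.21, adjusted p = 7.91e-44). At 0 to 4 counts of Pmch in an OB library, the fitted value for Pmch depends on the small count that edgeR adds and is no bound.

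Crhr1, the main pituitary and brain receptor for Crh, averaged 93.7 CPM in CBL, 74.4 in OB, 28.7 in BRN and 24.2 in BST. CBL minus BRN was 1.54 (SE 0.07, adjusted p = 5.44e-29), while Crh averaged 0.295 CPM in CBL. Npy1r averaged 20.6 CPM in BRN, 15.9 in OB, 9.70 in BST and 3.22 in CBL, and Npy2r 9.28, 0.908, 8.40 and 0.5001 CPM in the same order. Npy5r lay between 3.99 and 5.06 CPM outside CBL, where it averaged 0.933. Mc4r, the receptor on which melanocortins and Agrp compete, averaged 3.99 CPM in BST and 3.47 in BRN (0.30, SE 0.22, adjusted p = 0.205) and 0.271 or less in CBL and OB. Mc3r averaged 1.11 CPM in BRN and 0.368 or less elsewhere. Trhr averaged 9.66 CPM in BST, 4.92 in BRN, 4.83 in OB and 0.936 in CBL. Oxtr averaged 8.92, 7.54, 3.55 and 0.981 CPM in OB, BRN, BST and CBL. Trhr2, Crhr2, Avpr1a and Avpr1b averaged 2.99 CPM or less in every region.

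Fasting was examined in BRN in 16 libraries. Agrp passed the filter on low counts there through 3 libraries alone, all of them fasted, so no test of it over fasting is given and counts are over the other 9 members. Cartpt, whose peptide restrains feeding, was at 21.2, 18.9 and 22.4 CPM in the 3 fed mice and at 21.7, 26.9 and 35.8 CPM at 2 h. It was at 25.7 and 27.9 CPM at 8 h and at 36.1, 64.4 and 32.1 CPM at 12 h. It was at 21.3 and 36.7 CPM at 18 h and at 43.3, 43.4 and 32.6 CPM at 22 h. All libraries of 8, 12 and 22 h lay above all fed libraries, while those of 2 and 18 h overlapped them. Cartpt rose at 12 h, with a log2 difference from 0 h of 1.27 (SE 0.30, adjusted p = 0.0247), higher in 3 of 3 libraries. It rose at 22 h by 1.14 (SE 0.30, adjusted p = 0.0330), again higher in 3 of 3. In bulk tissue, fewer cells of a type and less RNA per cell cannot be told apart, and the same holds for more of either.

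Cartpt was the 1 member of 9 called by edgeR at 12 h, where 6.01 percent of genes were called, and at 22 h, where 6.88 percent were called (9.83 percent at any time against 0 h). Over 16 fits that each left out 1 library, its 12 h difference ranged from 0.80 to 1.49 and was called in 12. It was lost without BRN 0 h rep1 (1.29, adjusted p = 0.123), 0 h rep2 (1.23, adjusted p = 0.0824), 0 h rep3 (1.36, adjusted p = 0.0651) or 12 h rep2 (0.80, adjusted p = 0.152). The 22 h difference ranged from 1.00 to 1.32 and was called in 11. It was lost without 0 h rep1 (1.147, adjusted p = 0.143), 0 h rep2 (1.09, adjusted p = 0.101), 0 h rep3 (1.22, adjusted p = 0.0889), 22 h rep1 (1.08, adjusted p = 0.134) or 22 h rep2 (1.00, adjusted p = 0.205). The slope of Cartpt per hour was 0.0416 (SE 0.0130, adjusted p = 0.0550). It was called without 12 h rep2 (0.0384, adjusted p = 0.0177), 18 h rep2 (0.0463, adjusted p = 0.0433) or 22 h rep3 (0.0483, adjusted p = 0.0153), and over the 16 fits its adjusted p reached 0.165.

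Pmch, which promotes feeding, was at 54.3, 64.6 and 29.7 CPM in fed mice, 32.1, 44.1 and 77.8 CPM at 2 h and 147.2 and 142.7 CPM at 8 h. It was at 91.99, 117.4 and 71.7 CPM at 12 h, 151.03 and 52.5 CPM at 18 h, and 131.9, 206 and 64.1 CPM at 22 h. The 8 h and 12 h libraries lay above the fed ones, and 1 library each at 18 and 22 h lay within the fed range. The difference was 1.75 (SE 0.57, adjusted p = 0.150) at 8 h and 1.68 (SE 0.53, adjusted p = 0.0706) at 22 h, and neither was called. At 22 h it was called without 18 h rep2 (1.68, adjusted p = 0.0386), 18 h rep3 (1.68, adjusted p = 0.0389) or 22 h rep3 (2.06, adjusted p = 0.0112), while without 22 h rep2 it was 1.145 (adjusted p = 0.354). At 18 h the 2 libraries differed, and Pmch was called without 18 h rep3 (1.91, adjusted p = 0.0334) and was at 0.16 (adjusted p = 0.945) without 18 h rep2. The slope of 0.0699 per hour (SE 0.0227, adjusted p = 0.0701) was called without 8 h rep2 (0.0728, adjusted p = 0.0493), 18 h rep3 (0.0783, adjusted p = 0.0378) or 22 h rep3 (0.0833, adjusted p = 0.0154), and over the 16 fits ranged down to 0.0572, with an adjusted p of up to 0.232.

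Npy was at 46.6, 79.4 and 64.9 CPM in fed mice and at 91.3, 128 and 75.6 CPM at 12 h. In the other fasted BRN libraries it ranged from 61.7 to 93.4 CPM. Of the 12 h libraries, 1 overlapped the fed range. The 12 h difference of 0.80 (SE 0.24, adjusted p = 0.0562) was called without 12 h rep3 (1.00, adjusted p = 0.0266), 18 h rep2 (0.80, adjusted p = 0.0394), 18 h rep3 (0.80, adjusted p = 0.0397) or 22 h rep3 (0.82, adjusted p = 0.0359), and was 0.48 (adjusted p = 0.315) without 12 h rep2. Its slope of 0.0225 per hour (SE 0.00996, adjusted p = 0.152) was called without 22 h rep3 (0.0286, adjusted p = 0.0492) and ranged down to 0.0167, with an adjusted p of up to 0.353.

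Avp was at 19.2, 20.5 and 18.2 CPM in fed mice, at 45.3 and 41.9 CPM at 8 h and at 22.7, 55.2 and 54.2 CPM at 12 h. It was at 47.6 and 26.7 CPM at 18 h and at 17.8, 23.6 and 28.2 CPM at 22 h. The libraries of 8, 12 and 18 h lay above the fed ones, and those of 2 and 22 h overlapped them. Of the 2 h libraries, 1 lay above all fed ones, and the lowest BRN level of Avp (7.85 CPM) was at 2 h. The 12 h difference was 1.36 (SE 0.40, adjusted p = 0.0510), higher in 3 of 3 libraries and not called. It was called without 2 h rep1 (adjusted p = 0.0335), 2 h rep2 (0.0377), 12 h rep1 (0.0237), 18 h rep2 (0.0333), 18 h rep3 (0.0342) or 22 h rep3 (0.0434), with differences from 1.35 to 1.70, and was 1.07 (adjusted p = 0.234) without 12 h rep2. At 18 h Avp was called without 18 h rep3 (1.60, adjusted p = 0.0253) and was at 0.54 (adjusted p = 0.739) without 18 h rep2.

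Oxt was at 15.7, 18.1 and 6.54 CPM in fed mice, 40.96 and 23.98 CPM at 8 h and 31.4, 27.6 and 44.3 CPM at 12 h, without overlap between these fasted and the fed libraries. The 12 h difference was 1.52 (SE 0.49, adjusted p = 0.0714), and it was called without 2 h rep1 (1.52, adjusted p = 0.0263) or 2 h rep2 (1.54, adjusted p = 0.0350), and was 1.21 (adjusted p = 0.202) without 0 h rep3. Crh was called at 18 h without 18 h rep3 (2.07, adjusted p = 0.00779), which left the shallowest library, 18 h rep2 (13.8 CPM), as the lone one of its time, and turned to −0.44 (adjusted p = 0.832) without that library. At 22 h all Crh libraries (2.38 to 2.88 CPM) lay below all fed ones (2.92 to 5.30 CPM). Trh, at 16.9 to 18.7 CPM in 2 fed mice and 8.68 in the third, had a slope of 0.0379 per hour (SE 0.0172, adjusted p = 0.163), called without 22 h rep3 (0.04998, adjusted p = 0.0369) and with an adjusted p of up to 0.372 in the other fits. Pomc ranged from 3.55 to 9.83 CPM and Hcrt from 0.985 to 27.3 CPM over the times, and neither was called in any comparison. At 12 h all libraries of Trh (20.6 to 38.1 CPM) and of Hcrt (15.5 to 27.3 CPM) lay above all fed ones. These 12 h differences were not called (adjusted p = 0.128 and 0.336).

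**Figure D2:**
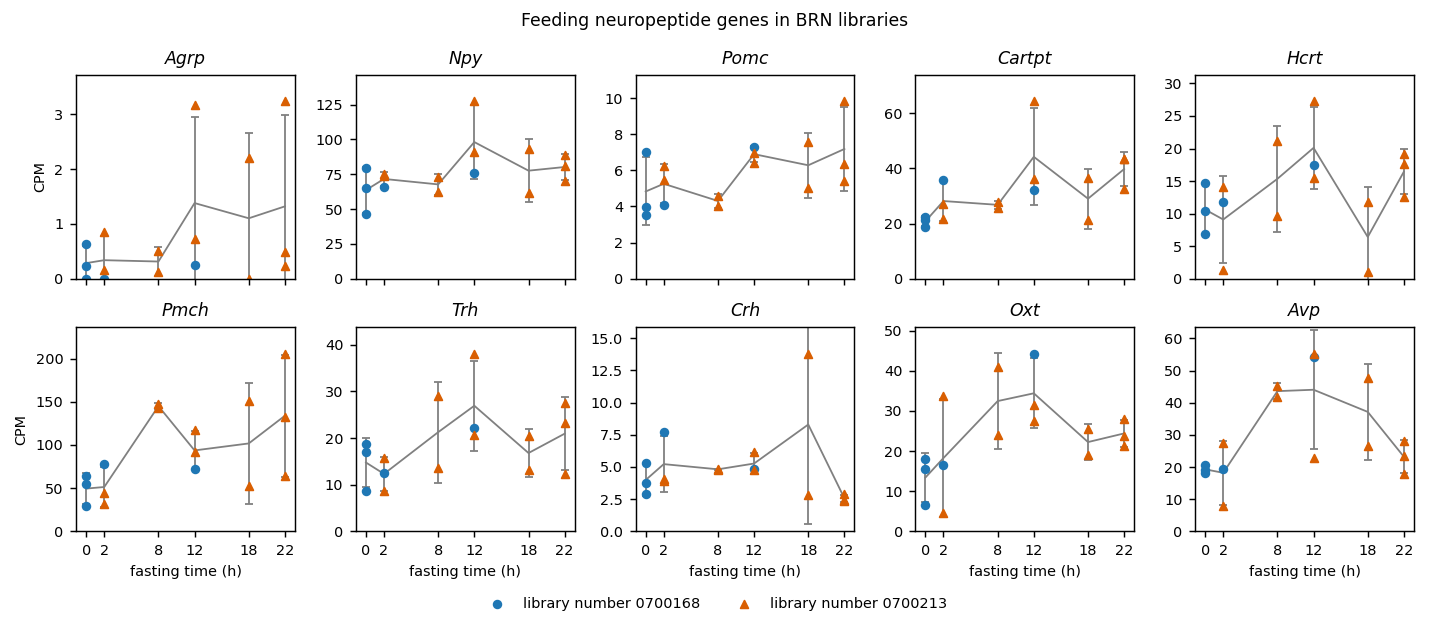
Level of each of the 10 genes in BRN in CPM (vertical axes, each panel with its own scale) against hours of fasting (horizontal axes). Circles are libraries of the lower series of library numbers and triangles those of the higher series, and the line with whiskers is mean ± SD at each time. All 3 fed libraries are circles, and Cartpt at 12 and 22 h lies above them.

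Over the 6 times together, 0 of 9 members were called in BRN by edgeR, where 0.00597 percent of genes were called. Under an unadjusted p of 0.05 were 3 members, and 2779 of all 16749 genes. DESeq2, which called 9.42 percent of genes, called 2, Avp (adjusted p = 0.00984) and Cartpt (adjusted p = 0.0201). Without 18 h rep3 edgeR called Avp (adjusted p = 0.0261), Cartpt (adjusted p = 0.0322) and Crh (adjusted p = 0.0361), with 17.3 percent of genes called. The slope per hour called 0 of 9 by edgeR, where 5.88 percent of genes were called. Under an unadjusted p of 0.05 were 5 members, and 4427 of all 16749 genes. DESeq2, which called 14.3 percent of genes by slope, called Cartpt (0.0414, adjusted p = 0.0198) and Pmch (0.0698, adjusted p = 0.0193). All 9 slopes were positive as fitted, with a median of 0.0369 per hour against −0.00153 over all genes, but the sign of Crh (0.00307) turned in several of the alternatives and that of Npy with the length trend removed (−0.000996), where 7 of 9 were positive with a median of 0.0151. At 2, 8 and 18 h edgeR called 0 members, where 0, 0 and 2.41 percent of genes were called. Under an unadjusted p of 0.05 were 0, 3 and 2 members, and 755, 2796 and 4122 of all 16749 genes. DESeq2 called Avp at 8 h (1.36, adjusted p = 0.0454), where it called 4.72 percent of genes. At 12 h DESeq2 called Avp, Cartpt, Npy and Oxt (adjusted p = 0.0113, 0.00225, 0.0212 and 0.0171), where it called 13.0 percent of genes. At 22 h it called Cartpt and Pmch (adjusted p = 0.00749 and 0.0257), where it called 13.8 percent. In the edgeR fits without 1 library the share of all genes called moved too. It reached 20.7 percent by slope and 18.3 percent at 22 h without 22 h rep3, and 11.2 percent at 12 h and 31.5 percent at 18 h without 18 h rep3.

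Library number and exon length moved with fasting in BRN. The labels give a lower and a higher series of library numbers. The fed libraries all belonged to the lower series, as did 2 h rep3 and 12 h rep3, while all other libraries used belonged to the higher series. Within a library, the log2 level per doubling of exon length, taken over genes against their mean, was 0.204, 0.153 and 0.165 in the fed libraries and −0.178 to 0.112 in the others. The slope of a gene over fasting had a Spearman correlation of −0.451 with exon length over 16430 BRN genes, which are not independent replicates. The members are short, with a median exon length of 0.881 kb against 4.08 kb. Their median level was higher in the 11 libraries of the higher series than in the 5 of the lower for Cartpt (32.6 against 22.4 CPM), Pmch (117.4 against 64.6) and Npy (75.1 against 66.0). It was also higher for every other member except Crh (4.05 against 4.86 CPM).

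With library number as a covariate, edgeR called 0 of 16749 genes in each comparison. Under an unadjusted p of 0.05 were 3 members at 12 h and 2 at 22 h, and the share of all genes under it is not given here. The Cartpt difference was 1.23 (adjusted p = 0.193) at 12 h and 1.09 (adjusted p = 0.503) at 22 h. With the length trend of each library removed, an alternative added after seeing the data, it was 0.75 (adjusted p = 0.137) and 0.61 (adjusted p = 0.220), where 0.776 and 0.0119 percent of genes were called. With the 2 left-out libraries included it was 1.30 (adjusted p = 0.601) and 1.148 (adjusted p = 0.752). The adjusted p over the alternatives ranged from 3.53e-04 to 0.601 at 12 h and from 0.00166 to 0.752 at 22 h. Within the 11 libraries of the higher series, which include no fed mouse, 8 of 9 member slopes were positive (median 0.0252 per hour) and 0 were called, with 0 under an unadjusted p of 0.05. Pcsk1n and Cpe, genes outside the members that edgeR called by slope over the 16 libraries, were not called there either (adjusted p = 0.9996 for both). These 2 genes were picked by their calls over the 16 libraries and are no background. The share of all genes called, positive or under that unadjusted p within the higher series is not given here. No slope was fitted within the 5 libraries of the lower series, 3 of them fed. Fed state and library number cannot be told apart among the fed libraries.

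**Figure D3:**
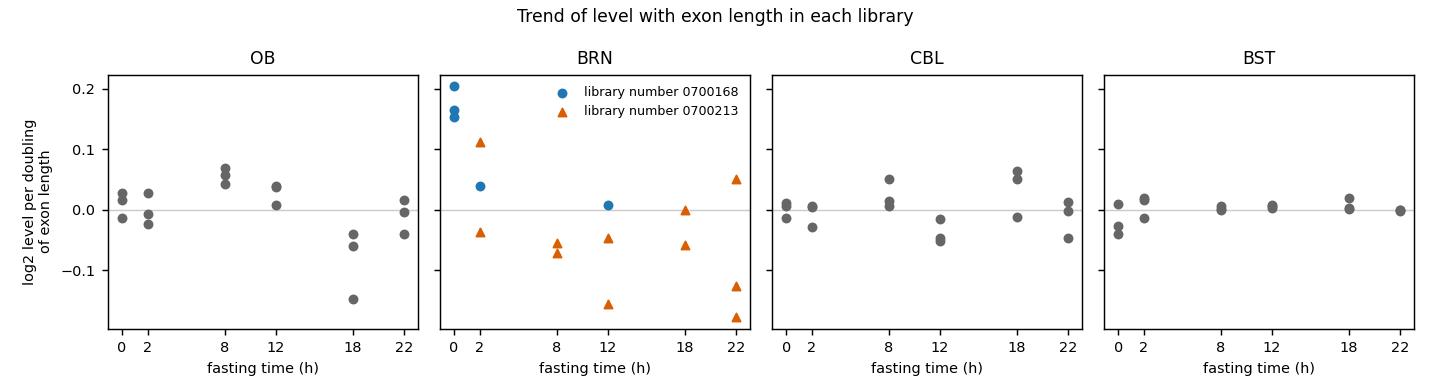
Log2 level per doubling of exon length in each library (vertical axis) against hours of fasting (horizontal axis), with a panel for each of OB, BRN, CBL and BST. Points are libraries. The fed BRN libraries lie at 0.153 to 0.204, above all other BRN libraries.

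The lists of hypothalamic factors and pituitary genes were followed beside these results. Since the hypothalamic list did not mark BRN, its sum and the covariate made from it do not measure the content of hypothalamus. Of the 14 hypothalamic factors, 9 passed the filter in BRN, and 0 were called in any comparison by edgeR or DESeq2, with 1 under an unadjusted p of 0.05 in at least 1 comparison. The list summed to 34.5, 34.1 and 26.04 CPM in fed mice, 18.2, 22.2 and 29.4 CPM at 2 h and 23.5 and 22.8 CPM at 8 h. It summed to 26.4, 29.5 and 35.01 CPM at 12 h, 7.55 and 23.5 CPM at 18 h and 22.1, 21.3 and 28.8 CPM at 22 h. Lhx9 led in 11 libraries, Isl1 in 4 and Nhlh2 in 18 h rep2, where 12 of the 14 genes, Sim1 and Nkx2-1 among them, were at 0. With the list's level as a covariate, Avp (1.31, adjusted p = 0.0403), Cartpt, Npy (0.79, adjusted p = 0.0411) and Oxt (1.59, adjusted p = 0.0385) were called at 12 h, where that fit called 10.2 percent of genes.

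The 12 pituitary genes summed to 3.13, 5.85 and 4.17 CPM in fed BRN libraries, 20.7, 3.48 and 1.58 CPM at 2 h and 1.99 and 2.72 CPM at 8 h. They summed to 5.45, 0 and 1.70 CPM at 12 h, 0 and 0.401 CPM at 18 h and 1.151, 3.24 and 3.43 CPM at 22 h. Gh led in 2 h rep1 (15.6 CPM), and Pou1f1 and Ghrhr were among those at 0 in all 16 libraries. With this list's level as a covariate the Cartpt difference at 12 h was 0.99 (adjusted p = 0.0798), and that at 22 h 1.00 (adjusted p = 0.0498), still called.

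In OB, the sequencing lane moved with fasting, since all libraries of 0 and 2 h and 2 of 8 h were on lane 3 and the third of 8 h and all of 12, 18 and 22 h on lane 4, so that a lane term rests on the 8 h libraries in a fit of the 6 times. The CBL libraries were all on lane 3 and those of BST on lane 4, and in BRN both 18 h libraries were on lane 1 while those of the other times were spread over lanes. Of the members, 5 passed the filter in OB, and 0 were called over the 6 times by edgeR, where 15.4 percent of genes were called. Under an unadjusted p of 0.05 there were 2, Npy (adjusted p = 0.0881) and Cartpt (adjusted p = 0.119), and 5425 of all 16742 genes. DESeq2 called Npy (adjusted p = 0.0149). Npy was at 122.8, 88.97 and 93.7 CPM in fed mice, 89.01, 87.8 and 85.6 CPM at 12 h and 158.8, 110.5 and 114.7 CPM at 18 h. The 18 h libraries were high and the 12 h libraries low, and both overlapped the fed range. Without OB 0 h rep1 edgeR called Npy (adjusted p = 0.0464), and with the replicate number as a block likewise (adjusted p = 0.0342), while over the fits without 1 library its adjusted p reached 0.213. Its 18 h difference was 0.33 (SE 0.15, adjusted p = 0.152), in a comparison where 12.0 percent of genes were called. Against 0 h edgeR called 0 members at 2, 8, 12, 18 and 22 h (0.00597, 0.0179, 0, 12.0 and 0.113 percent of genes, 12.1 at any time), with 0, 1, 2, 2 and 1 under an unadjusted p of 0.05 and 0 by DESeq2. Of all 16742 genes, 572, 1710, 1227, 5223 and 1660 were under that p at these times. Trh was at 160.8, 119.4 and 148.7 CPM in fed mice and at 107.99, 120.6 and 112.5 CPM at 12 h (−0.34, SE 0.15, adjusted p = 0.626), with overlap. All Cartpt libraries of 2 h (0.23, SE 0.15, adjusted p = 0.9999) and 18 h (0.35, SE 0.14, adjusted p = 0.102) lay above all fed ones. All Pomc libraries of 12 h (−1.33, SE 0.51, adjusted p = 0.564) and all Crh libraries of 22 h (−0.43, SE 0.20, adjusted p = 0.475) lay below the fed ones. The slope called 0 of 5 by edgeR and 0 by DESeq2, where 0.317 percent of genes were called. Crh (−0.0159, SE 0.00710, adjusted p = 0.269) was under an unadjusted p of 0.05, as were 2805 of all 16742 genes. With lane as a covariate 0 members were called, Npy having an adjusted p of 0.150 over the times (7.02 percent of genes called), and the share of genes called at 18 h and by slope was 0.

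In CBL, Npy and Pomc passed the filter. The fed CBL libraries had 20396385 to 22071004 total counts and the fasted ones 6487419 to 9487976. Depth thus moved with fasting there, and its part was not tested. Npy was at 13.1, 10.8 and 14.4 CPM in fed mice and at 16.0, 12.6 and 18.5 CPM at 22 h, with overlap. Its slope was 0.0119 per hour (SE 0.00519, adjusted p = 0.229), the 1 value under an unadjusted p of 0.05, where 2805 of all 15976 genes were. By edgeR 0 of 2 members were called over the 6 times (2.99 percent of genes called), 0 by slope (1.97 percent) and 0 against 0 h. Over the 6 times 0 members and 3801 genes were under an unadjusted p of 0.05. At 2, 8, 12, 18 and 22 h against 0 h 0, 0, 0.00626, 0.00626 and 3.96 percent of genes were called (3.97 at any time), with 0 members under an unadjusted p of 0.05, and DESeq2 called 0 members throughout. Genes under that p were 522, 1149, 2922, 1471 and 3312 at these times.

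In BST, 6 members passed the filter, and edgeR called 0 over the 6 times, where 0.107 percent of genes were called. Trh and Pomc were under an unadjusted p of 0.05, as were 1870 of all 16784 genes. Trh was at 26.2, 20.7 and 29.9 CPM in fed mice, 13.8, 16.2 and 22.6 CPM at 2 h and 31.3, 26.8 and 31.3 CPM at 8 h. The 2 h libraries were low (−0.54 against 0 h, SE 0.17, adjusted p = 0.751). The 8 h libraries were high (0.23, SE 0.16, adjusted p = 0.718). At each of these times 1 library lay within the fed range. Library number also moved with fasting in BST. By its leading digits it was lower in all fed libraries than in all libraries of 2 and 12 h. At the other fasting times both starts occurred, and the part of library number in BST was not tested. The joint test gave Trh an adjusted p of 0.248, or 0.0153 by DESeq2, the 1 member DESeq2 called, and 0.04995 without BST 2 h rep3, with up to 0.455 without another library. Cartpt was at 10.0, 34.8 and 8.21 CPM in fed BST libraries and Pomc at 1.87, 7.79 and 2.05 CPM, each high in 0 h rep2. That was the BST library with the most pituitary transcripts (51.6 CPM summed), and 2 h rep2 also held them (19.8 CPM). Pomc was called at 8 h (−1.66, adjusted p = 0.0487) without 0 h rep3, was at −1.36 (SE 0.44, adjusted p = 0.432) with all libraries and ranged up to −0.38 (adjusted p of up to 0.901) without another library. Against 0 h edgeR called 0 members at each time, where 0.00596 percent of genes were called at 12 h, 0 at the others and 0.00596 at any time, with 3, 2, 2, 2 and 2 under an unadjusted p of 0.05 and 0 by DESeq2. Of all 16784 genes, 958, 1454, 1573, 1579 and 1200 were under that p. The slope called 0 of 6 by edgeR (0.0238 percent of genes called) and 0 by DESeq2. Pomc was under an unadjusted p of 0.05 by slope, as were 1895 of all 16784 genes.

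Slopes were compared between regions over all 70 libraries. Counted were the members that passed the filter on low counts in both regions. OB minus BRN called 1 of 5, where 8.97 percent of genes were called, namely Trh (−0.0453 per hour, SE 0.0150, adjusted p = 0.0473). CBL minus BRN called 0 of 2 by edgeR, the one tool run for slope differences, where 22.4 percent of genes were called. Under an unadjusted p of 0.05 were 0 of these members, and 6412 of all 18496 genes. BST minus BRN called 4 of 6, where 22.4 percent were called, and all 4 were lower in BST. They were Pmch (−0.0911, SE 0.0233, adjusted p = 0.00441), Cartpt (−0.0702, SE 0.0187, adjusted p = 0.00618), Pomc (−0.0721, SE 0.0235, adjusted p = 0.0221) and Npy (−0.0348, SE 0.0122, adjusted p = 0.0336). These differences set BRN, with its length trend, against regions whose length correlation was −0.369 (OB), −0.0340 (CBL) and 0.0460 (BST), and the part of that trend was not tested here. All fed BRN libraries belonged to the lower series of library numbers, and no slope difference was fitted with library number as a covariate. Its part was not tested either.

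With the lane of the OB libraries as a covariate, added after seeing the data, the OB difference of Trh was −0.0106 (SE 0.0254, adjusted p = 0.938) and its call was lost, where 0 percent of genes were called in OB minus BRN. Without BST 0 h rep2, also added after seeing the data, 2 members were called in BST minus BRN, where 17.6 percent of genes were called, Npy (−0.0311, adjusted p = 0.0796) and Pomc (−0.0450, adjusted p = 0.162) being lost. Cartpt was at −0.0432 (adjusted p = 0.0446) and Pmch at −0.0866 (adjusted p = 0.0142), and the OB difference of Trh had an adjusted p of 0.0506 (8.47 percent of genes called). Without BRN 2 h rep3 and 18 h rep2 the OB difference of Trh was −0.0456 (adjusted p = 0.0592, 7.57 percent of genes called). Without the mice of replicate 1, 1 member was called in BST minus BRN and 0 in OB minus BRN, where 4.72 and 0.214 percent of all genes were called. Without those of replicate 2, 0 were called in both (0.629 and 0 percent of genes), and without those of replicate 3, 4 and 1 (30.1 and 17.3 percent). Over the alternatives the adjusted p ranged from 0.0318 to 0.938 for Trh in OB, and in BST from 0.00462 to 0.139 for Pmch, 0.00283 to 0.153 for Cartpt, 0.00486 to 0.680 for Pomc and 0.0325 to 0.237 for Npy.

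Members made by the same or adjoining neurons were compared over the 16 BRN libraries, on log2 normalized CPM, as 6 pairs. Oxt and Avp went together with a Pearson r of 0.755 (permutation p = 0.00034, Benjamini-Hochberg adjusted p = 0.0020) and a Spearman rho of 0.682 (permutation p = 0.0048, adjusted p = 0.029). Without 0 h rep3 and 2 h rep1, the libraries farthest from the Oxt median, r was 0.594. Within the 11 libraries of the higher series it was 0.706 (permutation p = 0.037, adjusted p = 0.11) with a rho of 0.255, and over deviations from the mean of each time 0.557 (adjusted p = 0.15), so the relation did not pass adjustment within these. No correlation was computed over the 5 libraries of the lower series.

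Agrp and Npy, made by the same arcuate neurons, had an r of 0.572 and a rho of 0.425. Without 12 h rep2 and 22 h rep2, r was 0.167, so that it rested on those libraries. Agrp was over the floor in 8 of the 16 libraries, so its pairs are given as a description with no p. Pomc and Cartpt had an r of 0.506 (permutation p = 0.045, adjusted p = 0.090) and a rho of 0.444 (permutation p = 0.087, adjusted p = 0.15), with an r of 0.282 without the farthest pair of libraries, 0.496 within the higher series and 0.0109 (permutation p = 0.97) over deviations from the mean of each time. Without 2 h rep3 and 18 h rep2, r for Pomc and Cartpt was 0.653 (adjusted p = 0.023) and that for Hcrt and Pmch 0.693 (adjusted p = 0.0079). With all 16 libraries Hcrt and Pmch had an r of 0.305 (permutation p = 0.26, adjusted p = 0.31) and a rho of 0.456 (permutation p = 0.078, adjusted p = 0.15), with an r of 0.720 without the farthest pair, 0.306 within the higher series and 0.0753 (permutation p = 0.78) over deviations from the time means. Agrp with Pomc had an r of 0.396 and a rho of 0.201. Trh with Crh had an r of −0.0837 (permutation p = 0.76, adjusted p = 0.76) and a rho of −0.05 (permutation p = 0.86).

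For each member, the genes with the most alike pattern over the 16 BRN libraries were ranked by Spearman rho, as a description with no test. Trh was most alike Mrap2 (0.879), Hcrtr1 (0.874) and Hcrt (0.832), the last being a member. Hcrt was most alike Retsat (0.915), Sf3b4 (0.865) and Gpx3 (0.859), and Oxt Gpx3 (0.841), Coq8b (0.829) and Zfp771 (0.80). Cartpt was most alike Nol12 (0.938), Clec2l (0.935) and Grhpr (0.932). Npy was most alike Fabp3-ps1 (0.924), Tex264 (0.918) and Gm5138 (0.897), and Pmch Gm10095 (0.924), Gm9794 (0.903) and Pgf (0.894). Pomc was most alike Chmp6 (0.879), Sgf29 (0.876) and Snrpc (0.868), and Avp Rara (0.876), Hspb8 (0.853) and Trappc2 (0.844). Agrp was most alike Brip1os (0.844), Parp3 (0.844) and 3110009E18Rik (0.840), and Crh, beside a gene whose symbol was garbled, Sox9 (0.812) and Pnp (0.771).

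Lists of other genes of these systems were counted over fasting. One list held 11 genes, Mrap2 and genes that act in the cutting, amidation, binding or breakdown of peptides. All 11 were tested in each region. In BRN, Pcsk1n, the inhibitor of the prohormone convertase, rose by 0.0365 per hour (SE 0.00992, adjusted p = 0.0384), and was at 1.18 (SE 0.18, adjusted p = 0.0110) at 12 h, where 6.01 percent of genes were called. Cpe, the carboxypeptidase that trims the cut peptides, rose by 0.0238 per hour (SE 0.00696, adjusted p = 0.0452), so that 2 of 11 were called by slope, where 5.88 percent of genes were, and 0 fell. At 18 h Pcsk1n (0.88, adjusted p = 0.0332) and Cpe (0.74, adjusted p = 0.0477) rose, 2 of 11 where 2.41 percent of genes were called. These calls were lost with the level of the hypothalamic list as a covariate, Pcsk1n being at 0.453 and Cpe at 0.204 (adjusted p = 0.9999 for both), and without 18 h rep2, the library low in that list, at 0.681 (adjusted p = 0.432) and 0.459 (adjusted p = 0.529). At 22 h, where 6.88 percent of genes were called, 3 of 11 rose, Pcsk1n (0.88, adjusted p = 0.0168), Scg5 (0.83, adjusted p = 0.0262) and Cpe (0.63, adjusted p = 0.0390). With library number as a covariate all of these calls were lost, Pcsk1n being at 1.122 (adjusted p = 0.133) at 12 h, and within the higher series its slope was 0.0136 (adjusted p = 0.9996). With the length trend removed Pcsk1n was still called at 12 h (0.90, adjusted p = 0.0425), as were both genes at 18 h (adjusted p = 0.0212 and 0.0256), while its slope (0.0293, adjusted p = 0.0753), that of Cpe (0.0204, adjusted p = 0.141) and the 3 calls at 22 h were lost. Over the 16 fits without 1 library Pcsk1n was called at 12 h in 15, lost without 0 h rep1 (adjusted p = 0.0933), at 18 h in 8 and by slope in 7. Cpe was called by slope in 6, at 18 h in 6 and at 22 h in 7, and Scg5 at 22 h in 11, each being lost without any 1 of the 3 fed libraries.

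In OB, 5 of the 11 were called over the 6 times, Pcsk1, Cpe, Scg5, Pcsk1n and Trhde (adjusted p = 0.00529, 0.0120, 0.0130, 0.0243 and 0.0369), where 15.4 percent of genes were called. At 18 h Trhde, which breaks down the peptide of Trh, fell by 0.45 (SE 0.11, adjusted p = 0.0184) and Pcsk1 by 0.40 (SE 0.12, adjusted p = 0.0399), while Scg5 rose by 0.28 (SE 0.09, adjusted p = 0.0454), 3 of 11 where 12.0 percent of genes were called. With lane as a covariate, which aligns with 18 h against 0 h, all 3 were lost at 18 h, with Trhde at −0.47 (adjusted p = 0.260), Pcsk1 at −0.46 (adjusted p = 0.306) and Scg5 at 0.46 (adjusted p = 0.211). Over the times Pcsk1, Cpe and Scg5 (adjusted p = 0.0141, 0.0205 and 0.0253) were still called with it, and Pcsk1n and Trhde (adjusted p = 0.0816 and 0.112) were not. Over 18 fits without 1 library the joint call held in 18 for Pcsk1 and Cpe, 17 for Scg5, 14 for Pcsk1n and 12 for Trhde. The 18 h call held in 15 for Trhde, 12 for Pcsk1 and 7 for Scg5, with an adjusted p of up to 0.301 for Scg5. Scg5 was called over the times in CBL (adjusted p = 0.0483), 1 of 11 where 2.99 percent of genes were called, and Pcsk1 there at 22 h (0.43, adjusted p = 0.0290), named after its values were seen, 1 of 11 where 3.96 percent were. In BST 0 of 11 were called in any comparison by edgeR or DESeq2, with 6 under an unadjusted p of 0.05 in at least 1 edgeR comparison. The OB libraries of 18 h also had the lowest length trends of OB, at −0.149, −0.0407 and −0.0601 log2 per doubling, and the Spearman correlation of slope with exon length was −0.369 over 16429 OB genes. Their part in the OB calls was not tested.

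Of 26 genes of other neuropeptides, OB had 12 that passed the filter, BRN and BST 16 each and CBL 10. In OB, Cck, Penk and Adcyap1 were called over the times (adjusted p = 0.0150, 0.0342 and 0.0432), 3 of 12 where 15.4 percent of genes were called. Penk rose by 0.36 at 18 h (SE 0.10, adjusted p = 0.0231), and Adcyap1 fell by 0.61 at 18 h (SE 0.18, adjusted p = 0.0366), 2 of 12 where 12.0 percent were called. Adcyap1 also fell by slope (−0.0295 per hour, SE 0.00650, adjusted p = 0.0468), 1 of 12 where 0.317 percent were called. Over 18 fits without 1 library this slope call held in 4, and the joint call in 17 for Cck, 9 for Penk and 6 for Adcyap1. The 18 h call held in 16 for Penk and 14 for Adcyap1. With the replicate number as a block the slope (adjusted p = 0.0676) and joint (adjusted p = 0.0593) calls of Adcyap1 were lost. With lane as a covariate Cck was still called over the times (adjusted p = 0.0337), while Penk was at 0.50 at 18 h (adjusted p = 0.220; 0.107 over the times) and Adcyap1 at −0.48 (adjusted p = 0.459; 0.737 over the times) with a slope of −0.0193 (adjusted p = 0.618), and these calls were lost. In BRN, Gnrh1, Ghrh and Ucn passed the filter through fasted libraries alone and are not counted. Of the other 13, edgeR called 0 in any comparison, with 8 under an unadjusted p of 0.05 in at least 1, and DESeq2 called 5 in at least 1, where it called 9.42 percent of all genes over the times, 22.6 percent at any time against 0 h and 14.3 percent by slope. Of 19 receptors, 11, 16, 11 and 17 were tested in OB, BRN, CBL and BST. Insr, the insulin receptor, was called in OB over the times (adjusted p = 0.0496), 1 of 11 where 15.4 percent of genes were called, and fell by 0.42 at 18 h (SE 0.11, adjusted p = 0.0188), where 12.0 percent were called, but with lane as a covariate the adjusted p was 0.121 over the times and 0.287 at 18 h. Over 18 fits without 1 library the joint call of Insr held in 6 and its 18 h call in 15. None of the receptors of the 10 peptides was called over time, by slope or against 0 h in any region by edgeR. Leaving out Hcrtr1, Trhr and Oxtr in CBL, which passed the filter there through fasted libraries alone, 4 of 9 in OB, 4 of 14 in BRN, 2 of 6 in CBL and 1 of 13 in BST were under an unadjusted p of 0.05 in at least 1 comparison. For this list and the others, the share of all genes under that p in at least 1 comparison is not given here. DESeq2 called Mc4r at 18 h and Mchr1 at 22 h in BRN, and Crhr1 in CBL over the times and at 22 h, with 10.7, 13.8, 11.1 and 6.37 percent of genes called.

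The 10 genes lie on 8 chromosomes in Gencode M21 models of GRCm38. Oxt (chr2:130576173-130577054, plus strand) and Avp (chr2:130580620-130582554, minus strand) are neighbours whose ends lie 3565 bp apart and point at each other, so their promoters are at the outer ends. The promoters of these neighbours, whose levels went together, and that of Cartpt, the member edgeR called against 0 h in BRN, are shown from the RefSeq table of GRCm38.p6 as 300 bases around the start, 5′ to 3′ on the strand of the gene. The windows are chr2:130575919-130576218 (plus) for Oxt, chr2:130582539-130582838 (minus) for Avp and chr13:99900634-99900933 (minus) for Cartpt. Capitals mark CCAATCA and CACGTG in Avp and TGACGTCA, the full cyclic AMP response element, in Cartpt.
Oxt: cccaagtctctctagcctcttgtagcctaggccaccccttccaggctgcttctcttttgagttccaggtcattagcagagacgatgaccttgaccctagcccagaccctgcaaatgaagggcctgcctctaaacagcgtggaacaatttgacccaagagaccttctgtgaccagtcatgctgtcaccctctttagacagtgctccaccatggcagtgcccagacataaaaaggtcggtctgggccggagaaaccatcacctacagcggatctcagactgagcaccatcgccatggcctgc
Avp: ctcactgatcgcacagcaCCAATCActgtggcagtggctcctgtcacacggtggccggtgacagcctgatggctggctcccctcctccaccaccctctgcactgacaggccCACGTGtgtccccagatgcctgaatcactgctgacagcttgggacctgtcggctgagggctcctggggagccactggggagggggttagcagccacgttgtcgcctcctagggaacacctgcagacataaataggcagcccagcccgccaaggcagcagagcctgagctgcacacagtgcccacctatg
Cartpt: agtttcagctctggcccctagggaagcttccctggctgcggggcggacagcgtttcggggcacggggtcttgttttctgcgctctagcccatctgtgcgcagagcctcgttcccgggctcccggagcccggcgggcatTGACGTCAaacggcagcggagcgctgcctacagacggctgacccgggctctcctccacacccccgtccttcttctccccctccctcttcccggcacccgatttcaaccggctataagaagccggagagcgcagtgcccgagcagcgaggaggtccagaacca
Of the 10 members, 8 had an entry in the table, Agrp and Crh being without one. The motifs searched, on both strands, were the TATA box (TATAAA), the E-box (CACGTG), the cyclic AMP response element (TGACGTCA) and its shorter form (TGACG), the CCAAT box with its flanks (CCAATCA) and the GC box (GGGCGG). TGACGTCA was found in Cartpt, where it holds the shorter TGACG on both strands, and in 1.79 percent of 32851 promoters. CACGTG and CCAATCA were found in Avp, and in 7.15 and 7.82 percent of promoters. TATAAA was found in Pmch, Hcrt and Pomc (13.6 percent of promoters), TGACG in Trh and Cartpt (20.8 percent), and GGGCGG in Npy, Trh, Hcrt, Pomc and Cartpt (35.7 percent). None of the 6 was found in the window of Oxt. A match describes the letters of the window and not a site of binding.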

How the data were processed

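Counts per gene of 162 mRNA libraries (9 organs of 18 mice) were deposited as raw counts. Per the labels, the authors made them with TruSeq stranded mRNA libraries, TopHat2 2.1.1 on GRCm38.p5 and HTSeq 0.9.1 on Gencode exons, and did not state the strand setting. The 72 brain libraries were used except for the 2 shallowest BRN libraries, which leaves 70. CPM was the count over the library total. Genes kept had the CPM of 10 counts in a library of median size in 3 or more libraries. Tests were edgeR 4.0.16 quasi-likelihood tests in R 4.3.3 (TMM, robust) over all kept genes, two-sided, with Benjamini-Hochberg adjusted p under 0.05 called: joint over 6 times, slope per hour and each time against 0 h within a region, and regions and slope differences with the mouse as a block. Pairs used log2 of normalized CPM plus 0.5 and 1e+05 permutations (two-sided, scipy 1.17.1). Alternatives were DESeq2 1.42.0, other size factors, no filter, blocks, covariates and left-out libraries. The pipeline was tested on simulated data. All 10 members are named. From each other list the genes called jointly or by slope are named, up to 5, with the receptors of the 10 peptides by level and 3 genes most alike each member. Members and lists were chosen with earlier results of these data known. Exon lengths are from Gencode M21 models, while the counts used an older release. Counts limit precision as given by the floor of 3 counts per library. The results of 2 items are not reported here.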

Additional observations from a re-analysis of the deposited data

Results flagged for a closer look

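Slopes over fasting differed between regions by a test of the difference for Trh in OB minus BRN (-0.0453 log2 per hour, adjusted p = 0.0473). They differed in BST minus BRN for Cartpt (-0.0702, adjusted p = 0.00618), Npy (-0.0348, adjusted p = 0.0336), Pmch (-0.0911, adjusted p = 0.00441) and Pomc (-0.0721, adjusted p = 0.0221). Of all genes, 8.97 percent were called in OB minus BRN and 22.4 percent in BST minus BRN. Without BST 0 h rep2 the BST difference of Cartpt was -0.0432 (adjusted p = 0.0446) and that of Pmch -0.0866 (adjusted p = 0.0142). Those of Npy (-0.0311, adjusted p = 0.0796) and Pomc (-0.0450, adjusted p = 0.162) were then lost. With the lane of the OB libraries as a covariate the difference of Trh was -0.0106 (adjusted p = 0.938). Without the mice of replicate 2 none of these differences was called. The report gives the alternatives under which calls were lost. All fed BRN libraries belonged to the lower series of library numbers. The part of library number and of exon length in these slope differences was not tested.

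Members had counts in libraries of organs outside the brain, which no comparison of the report uses, above the floor of 3 counts and far above the other libraries of the organ. Agrp had 18 counts (2.48 CPM) in STM 18 h rep2. Npy had 13 counts (1.45 CPM) in LIV 18 h rep1, 43 counts (6.50 CPM) in pgWAT 18 h rep3 and 57 counts (8.96 CPM) in psWAT 12 h rep3. Cartpt had 36 counts (4.36 CPM) in pgWAT 22 h rep2. In 1 library, pgWAT 8 h rep1, Pmch had 23 counts (2.87 CPM), Oxt 47 counts (5.87 CPM) and Avp 86 counts (10.7 CPM). Pmch had 34 counts (8.29 CPM) in psWAT 22 h rep3.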

How the results depend on the processing

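Of the results that answer a comparison, 328 values under an alternative kept their direction and their side of the threshold or stayed within the bounds for a count, 48 moved, 3 passed the threshold, 2 lost it and 1 turned sign. Counts of members that moved were as follows, and where the alternative does not itself show it, the cause was not tested. Over the 6 times, OB called 1 by DESeq2 (22.5 percent of all genes), 3 without a filter (14.2) and 1 with the replicate number as a block (18.2), BRN 2 by DESeq2 (9.42) and 6 without a filter (7.00), and BST 1 by DESeq2 (1.26) and 2 without a filter (2.45). Against 0 h without a filter, OB called 3 (10.2 percent of all genes) and BST 2 (0.935). BRN called 5 by DESeq2 (22.6 percent of all genes called), 6 without a filter (11.1), 4 with the block (12.0), 0 with all 18 libraries (0.384), 3 without 2 h rep3 and 18 h rep2 (13.9), 0 with library number as a covariate (0), 4 with the hypothalamic list (12.0) and 0 with the length trend removed (5.49), the last added after seeing the data. By slope, BRN called 2 by DESeq2 (14.3 percent of all genes), 1 without a filter (6.37), 2 with the block (10.6) and 1 without 2 h rep3 and 18 h rep2 (1.92). Slope differences in OB went to 0 without BRN 2 h rep3 and 18 h rep2 (7.57 percent of all genes called) or BST 0 h rep2 (8.47) or with the lane of the OB libraries as a covariate (0), and those in BST to 2 without BST 0 h rep2 (17.6).

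The BRN slope of Npy was -0.000996 per hour with the length trend removed. That of Crh was -0.00220 with the block, -0.0186 without 2 h rep3 and 18 h rep2, -0.0269 and -0.0204 with the hypothalamic and the pituitary list, -0.00284 within the higher series of library numbers and -0.00528 with the length trend removed. Of the pairs, Agrp and Npy had an r of 0.601 with a pseudocount of 1, and without 2 h rep3 and 18 h rep2 Pomc and Cartpt had 0.653 (adjusted p = 0.023, main fit 0.090), Hcrt and Pmch 0.693 (adjusted p = 0.0079, main fit 0.31) and Trh and Crh 0.113, while over deviations from the time means Pomc and Cartpt had 0.0109 and Hcrt and Pmch 0.0753. Oxt and Avp had 0.557 over deviations from the time means and 0.706 within the higher series of library numbers.

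Leaving out 1 library at a time, members called ranged from 0 to 5 in BRN against 0 h, 0 to 3 over the times and 0 to 4 by slope, from 0 to 1 over the times in OB and BST and against 0 h in BST, and the Crh slope from -0.0268 to 0.0151. In these fits 0 to 3443 of all genes were called by slope in BRN and 1019 to 3680 over the times in OB. In BST 1 to 207 were called over the times and 1 to 350 against 0 h. The share of all genes called in BRN against 0 h and over the times moved too, as given above. Leaving out 1 replicate number, slope differences called ranged from 0 to 1 in OB (0 to 17.3 percent of all genes) and 0 to 4 in BST (0.629 to 30.1). Where leaving out a library left a time with 1, the lone library was taken to vary like the other groups. Of the values for single genes, 872 were unchanged in call and direction, 14 passed the threshold, 128 lost it, 10 turned sign and the rest moved.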

Other observations

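Outside the brain, 2 of the 10 members had a count in 18 of 18 libraries of the stomach (STM). Npy had a median of 5.40 CPM and a highest level of 11.2 CPM there, and Cartpt a median of 13.6 CPM and a highest level of 42.3 CPM, in 12 h rep3. Pomc had a median of 0.948 CPM in pgWAT. Its highest level there, 3.75 CPM (30 counts), was in 8 h rep1, the library named above for Pmch, Oxt and Avp.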
